A study of Mus musculus with 4 samples.

Results

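The genes described here are 10 genes of the inflammasome and of pyroptosis, taken by name as sensors, adaptor, caspases, gasdermin and cytokines, and all 10 were among the 13834 genes of the deposited table. They were compared between peritoneal macrophages of Dnmt1 fl/fl mice and of Dnmt1 KO mice, with 2 samples per genotype. Both groups carried floxed Dnmt1, the maintenance DNA methyltransferase, and Dnmt1 KO mice also carried Cre recombinase under the LysM promoter, which is active in myeloid cells, so that other cells in a sample keep the gene. The labels give the controls as wt, the knockout as myeloid-specific, and the treatment of all samples as isolate. By the study's methods, macrophages were drawn into the peritoneal cavity of mice of 1 stated age with thioglycolate, washed out and cultured, with no inflammasome stimulus named for the sequenced cells. Nothing in the labels tells whether the samples were separate animals or pools, so p-values measure only the spread between these samples. Total counts were 20228071 and 24198943 in the control samples, numbered replicates 1 and 2 by the labels, and 21767795 and 22611219 in the knockout samples, numbered likewise.

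An inflammasome is a protein platform that a cytosolic sensor builds after it meets a microbial product or a sign of cell damage. The adaptor Pycard, also called ASC, links many sensors to the protease caspase-1, which matures the cytokines interleukin 1 beta and interleukin 18 and cleaves gasdermin D. The freed part of gasdermin D forms pores in the plasma membrane, through which the cytokines leave and the cell dies by pyroptosis. In macrophages the Toll-like receptor pathway first raises the transcripts of Nlrp3 and Il1b, a step known as priming.

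None of the 10 inflammasome genes passed the test between the genotypes. In edgeR's quasi-likelihood test, 0 of the 10 genes had an adjusted p under 0.05, against 0 of all 12542 genes tested, or 0%. At an unadjusted p under 0.05 there were 0 of 10, against 35 of all genes, or 0.279%. DESeq2 and limma-voom also gave 0 of 10 at either threshold, and over all genes they gave 1 and 0 at the adjusted and 39 and 40 at the unadjusted threshold. The genotypes overlapped in all 10 genes, while among all genes both Dnmt1 KO samples were above both controls in 8.14% and below both in 8.56%, or 16.7% in either direction. Scaled by library size without TMM factors, Nlrp3 did not overlap, against 16.5% of all genes. The median log2 fold change, Dnmt1 KO minus Dnmt1 fl/fl, was -0.14 over the 10 genes and 0.0046 over all genes tested, and over the 10 genes it turned to 0.08 without Dnmt1 KO replicate 1 and was -0.39 without Dnmt1 KO replicate 2. The 95% intervals of Nlrc4, Naip5, Casp4 and Il1b, and of 45.3% of all genes, reached a 2-fold difference, so the lack of calls does not exclude differences of that size. For any one gene, 2 samples against 2 allow no exact permutation p (two-sided) below 0.333.

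Dnmt1 itself, the deleted gene, stood at 86.6 and 67.0 CPM (counts scaled by the TMM method to a common library total) in the Dnmt1 fl/fl samples and at 37.0 and 42.7 CPM in the Dnmt1 KO samples. Both knockout samples were thus below both controls, in the direction of their labels, as were 8.56% of all genes. The log2 fold change of Dnmt1 was -0.95 (edgeR unadjusted p = 0.00839), and Dnmt1 did not pass the adjusted threshold.

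The samples were not equally alike, and Dnmt1 KO replicate 1 stood apart. Over all genes tested, its median absolute log2 difference from another sample was 0.339 to 0.481, whereas the other 3 samples differed from each other by 0.139 to 0.223. Dnmt1 KO replicate 2 was closer to Dnmt1 fl/fl replicate 1 (0.139) than the controls were to each other (0.207). Dnmt1 KO replicate 1 was the lowest sample in 39.6% and the highest in 38.8% of all genes, and among the inflammasome genes it was the lowest in 7 and the highest in 2. Fitted differences of single genes are therefore given below also without it, in a fit where the lone remaining Dnmt1 KO sample is assumed to vary like the controls.

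With 1 sample left out, a gene more easily fails to overlap, and the share of all genes shows it. Without Dnmt1 KO replicate 1, 9 of the 10 genes did not overlap, against 64.6% of all genes, and 0 were called, against 0% of all genes. Without Dnmt1 KO replicate 2, 9 did not overlap, against 82.8%, and 2 were called, against 8.32%. Without Dnmt1 fl/fl replicate 1 and replicate 2, 1 gene each did not overlap, against 40.1% and 46.4%, and 0 were called, against 0.0155% and 0.0781%.

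**Figure D1:**
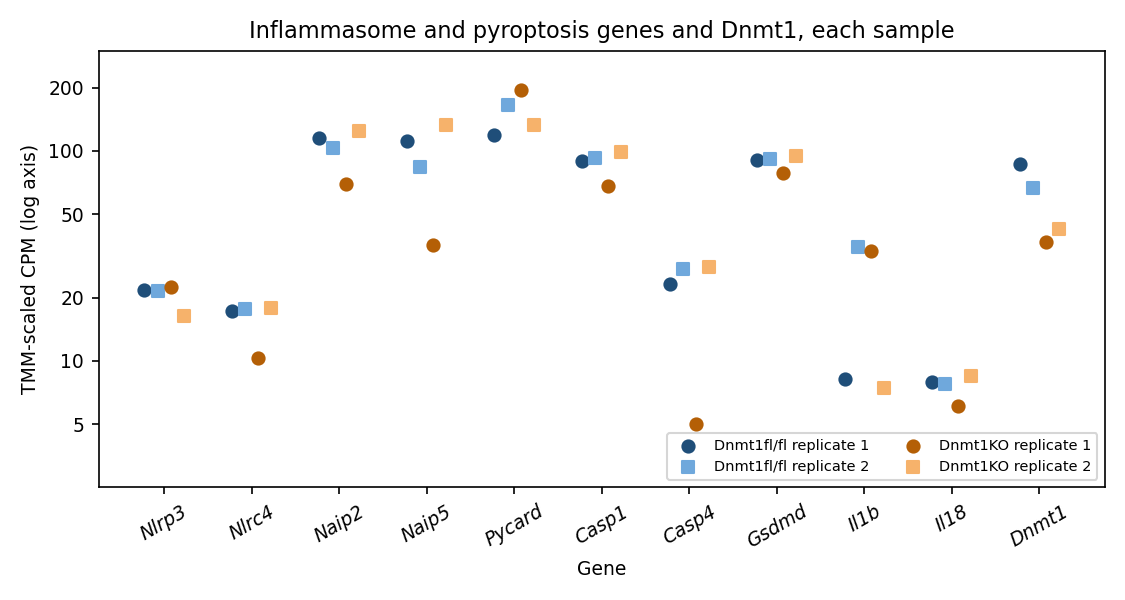
TMM-scaled CPM on a log axis for the 10 inflammasome and pyroptosis genes and Dnmt1, with 1 point per sample. Dnmt1 KO replicate 1 lies below the other samples in 7 of the 10 genes, and Il1b splits across the genotypes, with Dnmt1 fl/fl replicate 2 at 34.7 and Dnmt1 KO replicate 1 at 33.5 CPM.

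Among the sensors, Nlrp3 answers to potassium efflux and many other disturbances of the cell. It was at 21.7 and 21.5 CPM in the Dnmt1 fl/fl samples, 22.4 CPM in Dnmt1 KO replicate 1 and 16.4 CPM in Dnmt1 KO replicate 2. The controls were nearly equal, and the knockout samples lay on either side of them, with replicate 2 the low one. Its log2 fold change was -0.16 (standard error 0.25), and it was -0.40 without Dnmt1 KO replicate 1 and 0.05 without Dnmt1 KO replicate 2.

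Nlrc4 builds the inflammasome that senses bacterial flagellin and secretion systems, and the Naip proteins are its receptors. Nlrc4 was at 17.3 and 17.7 CPM in the controls, 10.4 CPM in Dnmt1 KO replicate 1 and 18.0 CPM in Dnmt1 KO replicate 2. Replicate 1 alone was low, and with all samples the difference on the log2 scale was -0.30 (standard error 0.33), against 0.04 when it was left out.

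Naip2, the receptor for rod proteins of the secretion apparatus, was at 115 and 103 CPM in the controls and at 70.0 and 124 CPM in Dnmt1 KO replicates 1 and 2. Naip5, the flagellin receptor, was at 112 and 83.6 CPM in the controls and at 35.7 and 133 CPM in Dnmt1 KO replicates 1 and 2. In both genes the knockout samples took the lowest and the highest place, with the controls between them. For Naip2 the log2 fold change was -0.17 (standard error 0.32), and 0.18 without Dnmt1 KO replicate 1. For Naip5 it was -0.21 (standard error 0.60), and -0.49 both with limma-voom and with the replicate block. The value of Naip5 turned to 0.44 without Dnmt1 KO replicate 1.

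The Naip genes share part of their sequence with each other, which makes their values less certain. Naip2 and Naip5 lie on chromosome 13 at 100144063 to 100202092 and at 100211739 to 100246323 on the minus strand (GENCODE M21, GRCm38). Of the 100-base stretches in their annotated transcripts, 16.2% for Naip5 and 4.44% for Naip2 also occurred in transcripts of other genes, mostly of the Naip family. Both had fractional estimated counts in all 4 samples, Nlrc4 had them in 2 and Pycard in 1, whereas Nlrp3, Casp1, Casp4, Gsdmd, Il1b and Il18 had whole counts throughout. The tolerance for a whole count was 1e-06. Naip6, a further flagellin receptor, was at 101 and 78.3 CPM in the controls and at 25.9 and 122 CPM in Dnmt1 KO replicates 1 and 2. Naip1, the receptor for needle proteins, was at 40.5 and 43.5 CPM in the controls and at 35.9 and 39.7 CPM in the knockouts, without the wide split of Naip5 and Naip6.

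Pycard, the adaptor, was at 120 and 166 CPM in the controls, 195 CPM in Dnmt1 KO replicate 1 and 132 CPM in Dnmt1 KO replicate 2. Here replicate 1 was the highest sample, opposite to the sensors of the Naip family. The log2 fold change of 0.20 (standard error 0.30) was -0.11 without that sample and -0.02 without Dnmt1 fl/fl replicate 1. Gm45205, on the opposite strand at the same locus, held 10.3% of Pycard's 100-base stretches, and the library kit named in the labels does not mark strand, so reads of the pair cannot be told apart there.

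Casp1, the protease of the canonical inflammasome, was at 90.0 and 92.4 CPM in the controls, 68.1 CPM in Dnmt1 KO replicate 1 and 98.6 CPM in Dnmt1 KO replicate 2. Its difference was -0.13 on the log2 scale (standard error 0.26), and 0.11 without Dnmt1 KO replicate 1. Casp4, known as caspase-11 in the mouse, binds bacterial lipopolysaccharide in the cytosol and cleaves gasdermin D directly. It was at 23.1 and 27.5 CPM in the controls, 4.999 CPM in Dnmt1 KO replicate 1 and 28.0 CPM in Dnmt1 KO replicate 2, or 475, 690, 99 and 660 deposited counts.

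Casp4 had the widest range of the 10 genes, 2.47 on the log2 scale, and 1 sample set it: the other 3 samples lay close together. Its log2 fold change was -0.62 (standard error 0.73) with all samples, and -1.05 with limma-voom and -1.07 with the replicate block. It was 0.14 without Dnmt1 KO replicate 1 and -2.34 without Dnmt1 KO replicate 2. In the last of these fits Casp4 (edgeR adjusted p = 0.00208) and Naip5 (edgeR adjusted p = 0.00748) passed the threshold, and so did 8.32% of all genes. Casp1 and Casp4 are neighbours on chromosome 9, from 5298517 to 5307265 and from 5308828 to 5336783, and neither shared a 100-base stretch with another gene.

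Genes with a pattern like that of Casp4 were sought among 5502 genes with a mean of at least 30 CPM, by Euclidean distance between centred log2 CPM over the 4 samples. The 5 nearest were Ints6l, Adamts10, Neat1, Fgd2 and Ttc14. Neat1, a long noncoding RNA that stays in the nucleus, was at 1646 and 1391 CPM in the controls, 308 CPM in Dnmt1 KO replicate 1 and 1696 CPM in Dnmt1 KO replicate 2. Malat1, a second nuclear RNA and chosen after its values were seen, was at 434 and 284 CPM in the controls, 175 CPM in Dnmt1 KO replicate 1 and 467 CPM in Dnmt1 KO replicate 2. Both were lowest in the sample where Casp4 was lowest, and their part in the level of Casp4 was not tested.

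Gsdmd, the pore-forming executor, varied least of the 10 genes, with a range of 0.27 on the log2 scale. It was at 90.9 and 91.5 CPM in the controls and at 78.9 and 94.9 CPM in Dnmt1 KO replicates 1 and 2. Its fitted difference was -0.07 on the log2 scale, with a 95% interval from -0.62 to 0.48, so that a moderate difference in either direction was not detectable with these samples, and it was 0.05 without Dnmt1 KO replicate 1.

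Il1b, the cytokine that priming induces, was at 8.18 CPM in Dnmt1 fl/fl replicate 1 and 34.7 CPM in Dnmt1 fl/fl replicate 2, and at 33.5 CPM in Dnmt1 KO replicate 1 and 7.46 CPM in Dnmt1 KO replicate 2. One sample of each genotype was high and one low, so the split ran across the genotypes and not between them. The log2 fold change of -0.07 (standard error 0.88) was -1.53 without Dnmt1 KO replicate 1, 0.63 without Dnmt1 KO replicate 2 and 1.33 without Dnmt1 fl/fl replicate 2. Il18, whose transcript macrophages hold before priming, was at 7.94 and 7.77 CPM in the controls and at 6.11 and 8.47 CPM in Dnmt1 KO replicates 1 and 2, a log2 fold change of -0.11 (standard error 0.31) that turned to 0.11 without Dnmt1 KO replicate 1. Il18 did not share the split of Il1b.

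**Figure D2:**
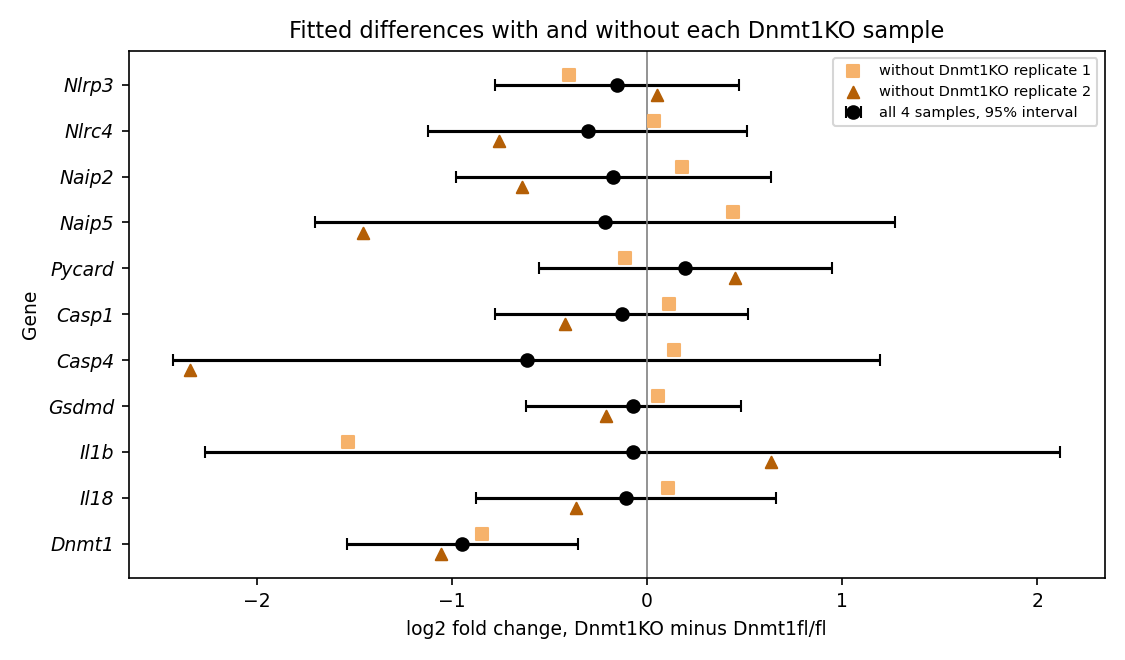
Log2 fold change, Dnmt1 KO minus Dnmt1 fl/fl, with its 95% interval from edgeR for all 4 samples (black), and the fitted value without Dnmt1 KO replicate 1 (squares) or without Dnmt1 KO replicate 2 (triangles). The interval of each of the 10 inflammasome genes includes 0, and the values without either sample lie on opposite sides of 0 for all of them.

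Levels were compared between genes per kilobase of annotated exon, with all transcripts of a gene merged. By these merged lengths Casp1 had the highest mean level, 58.3 CPM per kilobase, followed by Pycard at 40.3 and Gsdmd at 37.5 CPM per kilobase. Casp1 lay above Gsdmd in every sample. Pycard could not be placed beyond its spread, since it ran from 31.5 to 51.3 CPM per kilobase over the samples. Its merged length of 3800 bases also took in most of its gene, on chromosome 7 from 127989708 to 127993867. A shorter transcript would give Pycard a higher level per kilobase, so its rank depends on that length. Naip2 and Naip5 followed at 21.3 and 17.5 CPM per kilobase. Nlrp3 and Nlrc4 were lower, at 5.05 and 3.29 CPM per kilobase, and Casp4 was at 5.63 CPM per kilobase. The adaptor, caspase-1 and gasdermin D were thus more abundant per length than the 4 sensors in each of the 4 samples.

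Levels in Dnmt1 KO replicate 1 also differed from the others by gene length. The 12347 of 12542 genes with 1 exon length (98.4%) were put in 5 nearly equal groups by that length. In the group of the shortest genes its median log2 difference from the mean of the other 3 samples was 0.40, and in that of the longest it was -0.37. The same difference ran the other way in Dnmt1 fl/fl replicate 1 (-0.19 to 0.20) and Dnmt1 KO replicate 2 (-0.20 to 0.22), each set against a mean that holds Dnmt1 KO replicate 1, and from 0.03 to -0.02 in Dnmt1 fl/fl replicate 2. Casp1, Il18 and Gsdmd belong to the shortest group, yet in that sample they lay below the others, with log2 differences of -0.46, -0.40 and -0.23. Il1b, in the same group, differed by 1.38. Casp4 belongs to the group next to the shortest, where the median was 0.17, and it differed by -2.38. In the middle group, where the median was -0.0018, Naip5 differed by -1.59, Nlrc4 by -0.77, Naip2 by -0.70, Pycard by 0.50 and Nlrp3, the nearest to that median, by 0.19. Pycard is in the middle group by its merged length of 3800 bases, which took in most of its gene. A shorter transcript of Pycard would belong where the median was 0.17 or 0.40. The part of RNA length in these values was not tested further.

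**Figure D3:**
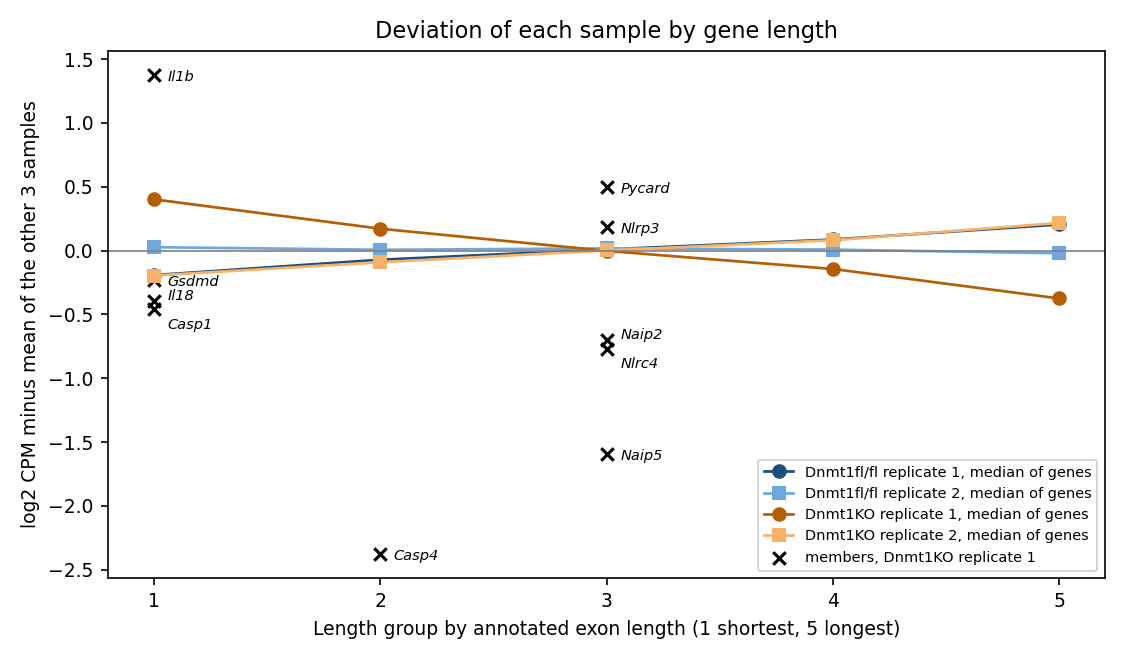
Median log2 CPM of each sample minus the mean of the other 3 samples, for 12347 genes in 5 groups of annotated exon length (lines), and the same difference of Dnmt1 KO replicate 1 for the 10 inflammasome genes (crosses). The line of Dnmt1 KO replicate 1 runs from 0.40 to -0.37, and Casp4 lies at -2.38.

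The cell type of the samples was checked with marker genes. All 7 macrophage markers were found in each sample, among them Adgre1, the F4/80 antigen, at 942 and 774 CPM in the controls and at 700 and 986 CPM in Dnmt1 KO replicates 1 and 2. Csf1r was at 1126, 1053, 1011 and 1075 CPM, Cd68 at 1487, 1145, 1835 and 1306 CPM, Itgam at 1785, 2206, 2094 and 1758 CPM, Mertk at 184, 152, 121 and 234 CPM, and Fcgr1 at 216, 200, 334 and 184 CPM, in the same order of samples. Lyz2, the gene of the LysM promoter that drives Cre, was the most abundant, at 29531 and 28588 CPM in the controls and 11351 and 15744 CPM in the knockouts (unadjusted p = 0.0145, edgeR adjusted p = 1.00). Its log2 fold change was -1.10, and -0.89 without Dnmt1 KO replicate 1. It is the single macrophage marker of 7 whose genotypes did not overlap, against 16.7% of all genes. Only the Dnmt1 KO mice carried this Cre, so for Lyz2 the presence of Cre and the loss of Dnmt1 cannot be told apart. Of the other 6 markers, the lowest value in any sample was the 121 CPM of Mertk in Dnmt1 KO replicate 1.

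Neutrophils, which thioglycolate also draws into the cavity, are a further source of Il1b transcripts. Of 13 neutrophil markers, 11 were in the table, 10 were tested and all 10 were highest in Dnmt1 KO replicate 1. Their summed level was 247 and 374 CPM in the controls, 985 CPM in Dnmt1 KO replicate 1 and 248 CPM in Dnmt1 KO replicate 2. Csf3r was the most abundant by its mean, at 158, 137, 169 and 159 CPM, and is also expressed by macrophages. S100a9 was at 5.55 and 60.5 CPM in the controls, 320 CPM in Dnmt1 KO replicate 1 and 8.35 CPM in Dnmt1 KO replicate 2. S100a8 was at 6.92, 35.7, 164 and 8.77 CPM, Cxcr2 at 2.63, 12.6, 35.8 and 3.05 CPM, Mmp9 at 33.4, 66.0, 145 and 31.9 CPM, and Retnlg at 7.89, 6.22, 40.6 and 5.93 CPM, in the same order.

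Among the 10 neutrophil markers tested, 6 were higher in Dnmt1 fl/fl replicate 2 than in replicate 1, as Il1b was, and Csf3r, Retnlg, Mmp8 and Ltf were lower. S100a9 differed between Dnmt1 fl/fl replicate 2 and Dnmt1 KO replicate 1 (60.5 and 320 CPM), where Il1b was nearly equal (34.7 and 33.5 CPM). Of the remaining neutrophil markers, Stfa2l1 was at 0.292, 3.99, 26.1 and 0.424 CPM, Mcemp1 at 18.5, 41.9, 51.2 and 21.4 CPM, Mmp8 at 12.9, 8.69, 26.3 and 8.90 CPM, and Ltf at 0.487, 0.478, 2.98 and 0.424 CPM. Ly6g, the defining surface marker, was too low to be tested, with 1, 8, 79 and 1 deposited counts in the same order, and Ngp and Camp are not listed in the table. The part of neutrophils in the level of Il1b was not tested.

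Some of the other marker lists set Dnmt1 KO replicate 1 apart as well. All 6 B cell markers were lowest in it, with sums of 334 and 524 CPM in the controls, 146 CPM in that sample and 556 CPM in Dnmt1 KO replicate 2, and Ighm was the most abundant. All 6 dendritic cell markers, led by Cd209a, were also lowest there, with sums of 42.3, 40.8, 23.6 and 53.1 CPM. The 5 monocyte markers, led by Ccr2, summed to 875, 1085, 683 and 1083 CPM, with 2 lowest and 2 highest in that sample. The 7 markers of resident large peritoneal macrophages, led by Fn1, summed to 6641, 6195, 6235 and 6127 CPM, of which Fn1 alone held 6411, 5933, 6123 and 5917 CPM. Of these 7, 5 were lowest in Dnmt1 KO replicate 1, and their median log2 fold change was -0.43, against -0.09 without that sample. Alox15, named after its values were seen, was at 68.2, 25.4, 5.15 and 64.1 CPM, and Selp, Timd4 and Icam2, chosen likewise, were at 20.8, 15.3, 4.04 and 16.9 CPM, at 91.4, 140, 67.6 and 78.8 CPM and at 41.4, 72.2, 28.4 and 40.5 CPM. Timd4 and Icam2 were below both controls in both knockout samples, as were 8.56% of all genes. The remaining markers of this list, Gata6 and Cxcl13, were at 4.63, 5.34, 3.43 and 5.80 CPM and at 3.75, 3.19, 3.38 and 3.26 CPM. T and NK cell markers, led by Gzma, summed to 25.6, 44.1, 37.1 and 33.2 CPM, with 0 of 7 lowest and 1 highest in Dnmt1 KO replicate 1, and eosinophil, mast cell and mesothelial markers, led by Ccr3, Cma1 and Krt19, to at most 14.1, 11.4 and 6.97 CPM. In bulk samples, fewer cells of a type and less RNA per cell cannot be told apart, and the part of cell composition in the levels of the inflammasome genes was not tested.

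In the wider pathway, of 10 other sensors tested, 0 passed the adjusted or the unadjusted threshold, against 0% and 0.279% of all genes. Naip1 and Nod2 had both knockout samples below both controls, 2 of 10 against 8.56% of all genes. Nod2, which senses bacterial muramyl dipeptide, was at 8.09 and 9.49 CPM in the controls and at 6.31 and 7.16 CPM in the knockouts, and Nod1 at 31.0, 25.8, 19.1 and 36.0 CPM. Nlrp12 had the largest difference of the list, a log2 fold change of 1.49 (standard error 0.96), from 0.682, 1.40, 5.20 and 0.720 CPM. That gene was high in 1 sample only, and without Dnmt1 KO replicate 1 the value reversed to -0.54.

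Among 13 regulators, 0 passed the adjusted or the unadjusted threshold, against 0% and 0.279% of all genes. Of these 13, 0 were apart between genotypes, against 16.7% of all genes. In Dnmt1 KO replicate 1, 10 were lowest, as were 39.6% of all genes. Gbp2, a guanylate-binding protein that acts on intracellular bacteria, was at 87.6 and 65.7 CPM in the controls and at 37.1 and 161 CPM in Dnmt1 KO replicates 1 and 2. Txnip, described as a partner of Nlrp3 under oxidative stress, was at 551, 466, 410 and 584 CPM, and P2rx7, the ATP receptor that opens the way for potassium efflux, at 157, 114, 90.0 and 155 CPM. Trim30a was at 125, 167, 83.5 and 145 CPM, and Pstpip1, a partner of pyrin, at 95.4, 111, 159 and 111 CPM.

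Of 14 genes of other cell death pathways, 0 passed the adjusted or the unadjusted threshold, against 0% and 0.279% of all genes. Of these 14, 0 were apart between genotypes, against the same 16.7%. Ninj1, which ruptures the membrane late in pyroptosis, was at 235 and 255 CPM in the controls and at 382 and 252 CPM in Dnmt1 KO replicates 1 and 2. Chmp4b, a part of the machinery that repairs gasdermin pores, was at 264, 333, 509 and 251 CPM, and the kinase Ripk1 at 129, 140, 119 and 146 CPM. Both Ninj1 and Chmp4b were highest in Dnmt1 KO replicate 1, as was Pycard.

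In the interleukin 1 family 10 of 11 genes were tested and 0 passed either threshold, against 0.279% of all genes at the unadjusted one. In both knockout samples 2 were above and 2 below the controls, against 8.14% and 8.56% of all genes. Those above were Il18bp and Il18rap, named after their values were seen, and those below were Il1a and Il1rap. Il1a, a cytokine that acts without caspase-1, was at 16.8 and 19.5 CPM in the controls and at 9.54 and 13.01 CPM in the knockouts, and Il1rap, the shared receptor subunit, at 21.4, 18.5, 11.3 and 17.7 CPM. Il1rn, the receptor antagonist, was at 158 and 154 CPM in the controls and at 229 and 62.8 CPM in Dnmt1 KO replicates 1 and 2. Il1r2, the decoy receptor, was at 1.61, 5.30, 22.1 and 1.57 CPM, and Il1f9, the former symbol of Il36g, at 0.633, 6.90, 22.6 and 1.31 CPM. These 2 were high in the same samples as Il1b and S100a9.

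Of the 18 priming genes from the Toll-like receptors to NF-kB, 0 passed the adjusted or the unadjusted threshold, against 0% and 0.279% of all genes. Ticam1 and Traf6, named after their values were seen, were above the controls in both knockout samples, and Tnfaip3 was below, 3 of 18 against 16.7% of all genes. Cd14, the lipopolysaccharide co-receptor, was at 240 and 472 CPM in the controls and at 459 and 197 CPM in Dnmt1 KO replicates 1 and 2, split like Il1b. Tlr2 was at 50.4, 77.5, 57.5 and 38.3 CPM, and Tnfaip3, a feedback inhibitor of NF-kB, at 93.9 and 66.7 CPM in the controls and 62.8 and 44.7 CPM in the knockouts. Ikbkb was at 150, 154, 114 and 164 CPM and Tab2 at 140, 130, 121 and 137 CPM. The median log2 fold change was -0.12 for other sensors, 0.02 for regulators, 0.04 for other cell death, -0.18 for the interleukin 1 family and -0.09 for priming. With 1 sample left out at a time, each of these changed sign: they ran from -0.28 to 0.06, from -0.24 to 0.10, from -0.08 to 0.18, from -0.33 to 0.31 and from -0.12 to 0.0128, in the same order.

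Since Dnmt1 copies methylation at CG, the CG content before the start of each gene was counted, although methylation was not analysed here. RefSeq (GRCm38.p6) gave promoters for 9 of the 10 genes, and Gsdmd had no entry. In the 250 bases before the start, the 9 genes held from 0 CG in Naip2 to 4 in 1 of the starts of Nlrp3, against a median of 6 over 32851 promoters. Each of the 9 was below that median. The sequences of Naip2 and Naip5, which were low together in Dnmt1 KO replicate 1, and of Casp4 and Il1b, which ranged most widely, are shown 5′ to 3′ with CG in capitals. They are chr13:100202123-100202372 and chr13:100247337-100247586 on the minus strand, chr9:5308599-5308848 on the plus strand and chr2:129371140-129371389 on the minus strand.
Naip2: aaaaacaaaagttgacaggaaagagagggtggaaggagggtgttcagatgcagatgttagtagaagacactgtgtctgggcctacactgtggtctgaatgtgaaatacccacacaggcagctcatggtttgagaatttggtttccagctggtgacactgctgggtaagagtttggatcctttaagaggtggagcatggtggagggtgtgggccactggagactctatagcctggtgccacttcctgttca
Naip5: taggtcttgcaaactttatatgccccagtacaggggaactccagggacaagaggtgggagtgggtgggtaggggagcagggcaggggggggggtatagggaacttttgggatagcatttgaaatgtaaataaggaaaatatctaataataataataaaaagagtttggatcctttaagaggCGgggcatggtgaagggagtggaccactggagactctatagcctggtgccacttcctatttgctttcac
Casp4: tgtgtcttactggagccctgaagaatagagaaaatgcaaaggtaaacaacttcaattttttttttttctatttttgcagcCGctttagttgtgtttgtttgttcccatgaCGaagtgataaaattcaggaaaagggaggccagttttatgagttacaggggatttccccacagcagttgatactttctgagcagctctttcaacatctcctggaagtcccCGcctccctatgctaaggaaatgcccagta
Il1b: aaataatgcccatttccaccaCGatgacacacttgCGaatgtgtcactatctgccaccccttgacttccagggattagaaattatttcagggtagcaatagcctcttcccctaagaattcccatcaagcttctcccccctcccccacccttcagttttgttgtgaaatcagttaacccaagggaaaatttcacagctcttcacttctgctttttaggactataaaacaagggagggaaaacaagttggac

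Both strands of the same windows were searched for TATAAA, the core of the TATA box, which 12.4% of all promoters held. It occurred 1 time each before Il1b, Il18 and Naip5. Only the match of Il1b read in the direction of the gene, at base 220 of the 250. Those of Il18 and Naip5 lay on the reverse strand and farther from the start, at bases 76 and 15. A match describes letters only and shows no binding. An NF-kB-like and an interferon-response-like motif were also searched in these windows in an earlier run, and their matches are not reported here.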

How the data were processed

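RNA of 4 samples was sequenced as paired-end reads. Per the labels, the authors' processing notes name HISAT2 2.0.5, featureCounts 1.5.0-p3 and the build mm10 (GRCm38). The authors deposited estimated counts per gene, not normalized, with no statement on reads that fit several genes. Counts were rounded, filtered with filterByExpr, scaled with TMM and compared with edgeR 4.0.16 (R 4.3.3) by the two-sided quasi-likelihood test, with Benjamini-Hochberg adjustment over all genes tested. The log2 CPM used a prior count of 1. The models were tested on simulated data. As alternatives, other filters and scalings, DESeq2 1.42.0, limma-voom from limma 3.58.1, a replicate block and the omission of each sample were tried. Named genes were the inflammasome genes, Dnmt1, from each pathway list the 3 most abundant and the 2 with the largest absolute log2 fold change, any with an unadjusted p under 0.05, the most abundant gene of each cell type list, and all macrophage and neutrophil markers. The genes and lists were chosen with earlier results of these data known. Positions and exon lengths are from GENCODE M21 and promoters from RefSeq, read with Python 3.11.15. Proteins were not used here.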

Additional observations from a re-analysis of the deposited data

How the results depend on the processing

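With 1 sample left out, its genotype has a lone sample, which is assumed to vary like the other group. The 10 inflammasome genes and Dnmt1 kept their direction and their side of the adjusted threshold in 88 of 88 comparisons with an alternative on all 4 samples. Their size moved, though, with limma-voom and the replicate block, to -1.05 and -1.07 for Casp4 (from -0.62), to -0.49 in both for Naip5 (from -0.21) and, with limma-voom, -0.16 for Il1b (from -0.07). Library size without TMM moved Nlrp3 from -0.16 to -0.24, Pycard from 0.20 to 0.10, Gsdmd from -0.07 to -0.13, Il1b to -0.21, Il18 from -0.11 to -0.16 and the median from -0.14 to -0.21. Other filters, DESeq2 and its size factors moved none of these differences by over 1.5 times. Over all genes tested, edgeR called 0 and DESeq2 1. At an unadjusted p under 0.05 edgeR gave 35 genes, against 60 with no filter, 84 without Dnmt1 fl/fl replicate 2, 352 without Dnmt1 KO replicate 1 and 3521 without the second knockout sample. The replicate block gave 0 genes called and 0 inflammasome genes at an unadjusted p under 0.05, and the correlation of same-numbered deviations was -0.348, across genes. What the numbers stand for is not given in the labels. The crossed pairing, chosen after seeing the data, gave 3 genes called. At an unadjusted p under 0.05 it gave 297 genes, or 2.37%, 1 of them an inflammasome gene, Casp4. It moved the log2 fold change of Casp4 to -1.04 and that of Naip5 to -0.49. Library size without TMM left 1 inflammasome gene, Nlrp3, with non-overlapping genotypes, against 16.5% of all genes. The TMM factors that this scaling leaves out were 1.015 and 1.037 in the controls. They were 0.910 and 1.044 in Dnmt1 KO replicates 1 and 2, and the cause of these factors was not tested.

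Leaving out 1 sample at a time gave 0 to 1061 genes called, 0 to 2 inflammasome genes called, 0 to 4 at an unadjusted p under 0.05, and 1 to 9 with non-overlapping genotypes. The highest values came without Dnmt1 KO replicate 2, where the 2, 4 and 9 stood against 8.32%, 27.6% and 82.8% of all genes, and without Dnmt1 KO replicate 1 the 9 stood against 64.6%. The median log2 fold change ran from -0.39 to 0.08. Of 44 leave-one-out values of single genes, 13 changed sign and 3 passed the adjusted threshold (Naip5, Casp4 and Dnmt1, without Dnmt1 KO replicate 2). By gene, these values on the log2 scale ran from -0.40 to 0.0535 for Nlrp3, -0.76 to 0.0354 for Nlrc4, -0.64 to 0.18 for Naip2, -1.45 to 0.44 for Naip5, -0.11 to 0.46 for Pycard, -0.42 to 0.11 for Casp1, -2.34 to 0.14 for Casp4, -0.21 to 0.0544 for Gsdmd, -1.53 to 1.33 for Il1b and -0.36 to 0.11 for Il18. The cause was not tested. At a depth of 20228071 to 24198943 counts, 1 of 11 neutrophil markers and 1 of 11 interleukin 1 family genes were too low to be tested. The spread between samples, a coefficient of variation of 28.9%, is a further limit, and the 2 were not compared.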
